A study of Mus musculus with 6 samples.

Results

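Antiviral interferon-stimulated genes are the effector arm of the type I interferon response, and 37 of them were followed here by gene symbol among the 40773 symbols of the deposited count table. All 37 were in the table, and 36 passed the filter on low counts and could be tested. RNA was sequenced from RAW264.7 cells, an established mouse macrophage line transformed with Abelson leukaemia virus, in 2 groups of 3 biological replicates. One group was kept for 24 h with lipopolysaccharide (LPS, 100 ng/mL) together with 3A2 at 50 µg/mL, an antibody that neutralizes the membrane-bound matrix metalloproteinase MMP14. The other was kept for 24 h with the same LPS dose alone. LPS comes from the outer membrane of Gram-negative bacteria. Both groups had therefore received LPS, and cells without LPS or with a control antibody were not analysed here. The question addressed is what neutralizing MMP14 changed in LPS-treated macrophages.

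In a macrophage, LPS acting through Toll-like receptor 4 and the adaptor TRIF switches on interferon beta. The secreted interferon then binds its receptor IFNAR on the same and on neighbouring cells, and the kinases JAK1 and TYK2 phosphorylate transcription factors of the STAT family. The complex ISGF3, which contains IRF9, then binds interferon-stimulated response elements in the promoters of interferon-stimulated genes. The products bind or degrade foreign RNA, starve viruses of nucleotides, tag proteins with the ubiquitin-like modifier ISG15, or block virus entry and release.

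Libraries held 6060732 to 6537419 counts with LPS plus 3A2 and 6431096 to 7432553 with LPS. Levels are given in CPM, counts per 1000000 counts of the library after TMM scaling, a correction for library composition. CPM does not correct for gene length. Of 10 macrophage markers 9 were tested, and levels ranged widely. Lyz2, Cd14, Cd68, Csf1r and Itgam were abundant, at 419 to 4058 CPM on average over the 6 libraries. Ptprc averaged 195 CPM and Spi1 123 CPM. Fcgr1 averaged 25.2 CPM, Adgre1 13.5 CPM and Mertk, which was not tested, 0.593 CPM. The summed level of the 10 markers was 6264 to 6706 CPM with LPS plus 3A2 and 7198 to 7268 CPM with LPS, so the groups did not overlap. Lyz2, the macrophage lysozyme, made up most of that sum, at 3779.5 ± 125 CPM with LPS plus 3A2 and 4337 ± 69.5 CPM with LPS (SD, n = 3 each; edgeR adjusted p = 0.719). The difference was not in Lyz2 alone. Of the 9 markers tested, 8 were lower with LPS plus 3A2 and 1 higher, and 0 passed an adjusted p of 0.05 by edgeR. Without adjustment 3 had an edgeR p under 0.05, Lyz2, Csf1r and Spi1, all lower, against 3.09% of all genes tested. CPM is a share of the counts of a whole culture, so fewer cells expressing a gene and less of its RNA per cell cannot be told apart. Whether the lower marker sum has a part in the values below was not tested. No library held more than 0.162 CPM of T and NK cell markers or 0.937 CPM of B and plasma cell markers, with Ms4a1, Cd3e and Cd8a at 0 counts in all libraries. Epithelial markers were at 0 counts throughout, and fibroblast markers reached 0.768 CPM in sum. Neutrophil markers reached 7.47 CPM in sum, nearly all of it S100a8. The 7 dendritic cell markers summed to 290.5 to 325 CPM with LPS plus 3A2 and 306 to 329 CPM with LPS. Siglech, Flt3 and Clec9a were at 0 counts in all libraries, while the transcription factor gene Tcf4 averaged 99.4 ± 9.27 CPM with LPS plus 3A2 and 99.9 ± 6.23 CPM with LPS, and Zbtb46 2.41 ± 0.183 CPM with LPS plus 3A2 and 2.15 ± 0.224 CPM with LPS. Bst2, listed with them, is also one of the genes described here.

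Promoters were searched for sequence elements of the interferon response, which only part of these genes turned out to hold. Windows from 250 bases before to 50 after the annotated start (RefSeq, GRCm38.p6) were found for 29 of the 37 genes. None was found for Ifi27l2a, Mx1, Mx2, Oas2, Parp9, Parp14, Rtp4 and Usp18. The core of the interferon-stimulated response element, searched as GAAA, any 2 bases and GAAA again on both strands, was present in 12 of those 29 (41.4%), against 1079 of 27025 genes (3.99%) for all promoters of the same length. These 12 were Bst2, Ifit1, Ifit3, Ifit3b, Ifitm3, Isg15, Oas1a, Oas1g, Oas3, Rsad2, Slfn5 and Trim30a. The core of the gamma-activated sequence, a second interferon-responsive element, searched as TTCNNNGAA, which reads the same on both strands, was present in 6 of 29 (20.7%), against 9.55% of all genes. It was found in Bst2, Ifi35, Ifit2, Ifitm3, Isg20 and Oas1a. In Bst2 and Ifitm3 it overlaps a match to the interferon element core. Motif matches describe the letters in the window and are not measured binding sites.

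The 3 members with the smallest p-values below are Rsad2 (chr12:26456403-26456702, minus strand), Ifi44 (chr3:151749861-151750160, minus strand) and Slfn5 (chr11:82951852-82952151, plus strand). They are shown with Isg15 (chr4:156200769-156201068, minus strand), which has the most matches, and with the near-copies Ifit3 (chr19:34583279-34583578, plus strand) and Ifit3b (chr19:34607707-34608006, plus strand). Each is written 5′ to 3′ along the gene, with matches to the core of the interferon element (GAAA, 2 bases, GAAA, or its reverse complement) in capitals.
Rsad2: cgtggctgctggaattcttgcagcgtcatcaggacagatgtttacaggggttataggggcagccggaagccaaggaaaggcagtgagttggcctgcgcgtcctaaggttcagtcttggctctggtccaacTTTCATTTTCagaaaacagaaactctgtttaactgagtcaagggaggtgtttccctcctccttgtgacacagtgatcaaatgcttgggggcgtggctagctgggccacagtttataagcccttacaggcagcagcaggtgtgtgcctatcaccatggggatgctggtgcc
Slfn5: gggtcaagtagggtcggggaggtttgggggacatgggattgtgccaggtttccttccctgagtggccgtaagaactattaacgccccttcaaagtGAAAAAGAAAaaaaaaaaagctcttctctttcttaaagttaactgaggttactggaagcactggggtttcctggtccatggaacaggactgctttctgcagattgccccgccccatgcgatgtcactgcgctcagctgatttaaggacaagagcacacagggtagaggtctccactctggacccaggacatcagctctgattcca
Ifi44: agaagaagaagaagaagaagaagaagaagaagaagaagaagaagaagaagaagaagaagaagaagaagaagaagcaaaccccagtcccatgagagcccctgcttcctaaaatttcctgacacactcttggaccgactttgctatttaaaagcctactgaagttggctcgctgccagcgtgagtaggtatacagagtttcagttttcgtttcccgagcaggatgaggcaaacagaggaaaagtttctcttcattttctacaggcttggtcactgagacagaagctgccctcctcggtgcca
Isg15: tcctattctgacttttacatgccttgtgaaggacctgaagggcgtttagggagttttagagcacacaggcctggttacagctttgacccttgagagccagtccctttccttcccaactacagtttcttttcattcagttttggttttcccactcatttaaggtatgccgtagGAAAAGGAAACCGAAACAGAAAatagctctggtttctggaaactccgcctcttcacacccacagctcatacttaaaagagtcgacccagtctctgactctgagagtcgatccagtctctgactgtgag
Ifit3: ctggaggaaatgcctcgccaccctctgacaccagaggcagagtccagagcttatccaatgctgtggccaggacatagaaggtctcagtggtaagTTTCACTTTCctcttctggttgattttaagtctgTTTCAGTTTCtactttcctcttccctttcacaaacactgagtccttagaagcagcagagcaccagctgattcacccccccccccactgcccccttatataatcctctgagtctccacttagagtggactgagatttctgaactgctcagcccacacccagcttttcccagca
Ifit3b: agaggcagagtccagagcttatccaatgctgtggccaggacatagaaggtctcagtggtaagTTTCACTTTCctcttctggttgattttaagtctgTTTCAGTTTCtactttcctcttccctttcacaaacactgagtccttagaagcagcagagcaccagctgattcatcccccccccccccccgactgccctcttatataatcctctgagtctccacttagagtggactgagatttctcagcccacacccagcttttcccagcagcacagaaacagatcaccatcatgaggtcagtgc

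Positions count from the annotated start at 1. In Isg15, 3 overlapping matches form one run from -78 to -57. Rsad2 has a single match on the opposite strand at -120 to -111, and Slfn5 one at -155 to -146 that runs into a stretch of A. The letters of the core are not in the Ifi44 window. The Ifit3 and Ifit3b windows align over 268 bases at an offset of 32 bases, with 75% identical bases without gaps, and both of their matches are shared at that offset. A run of C differs in length between these windows, so bases after it fall out of register and the percentage understates their likeness. Oas1a and Oas1g likewise carry paired matches close to the start, at -20 to -5 and -18 to -3.

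**Figure D1:**
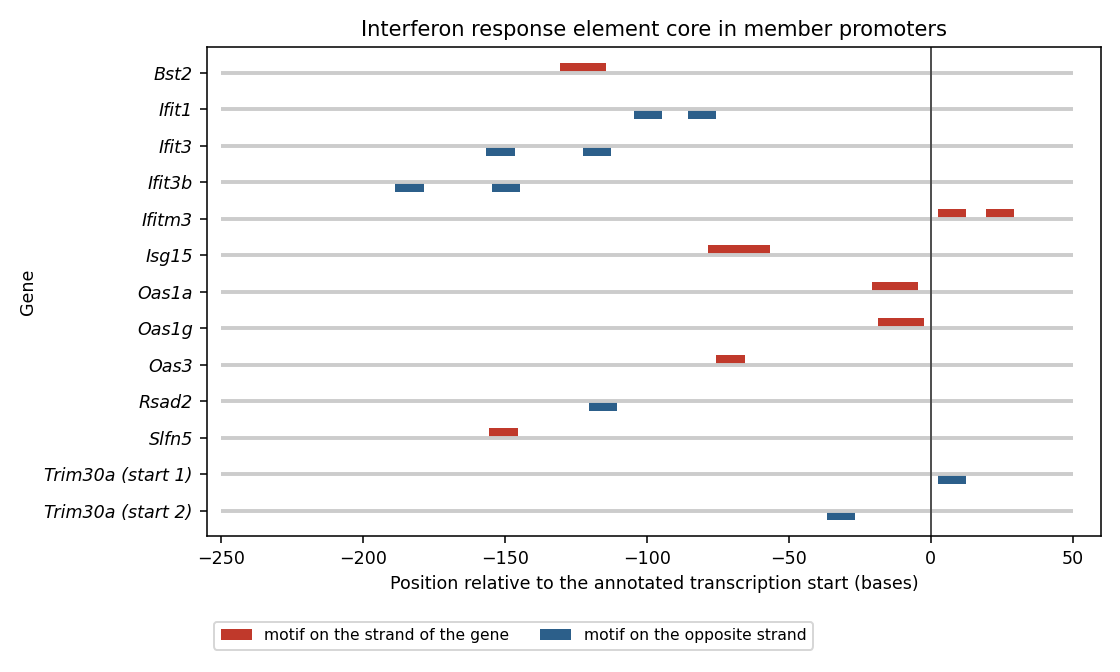
Positions of matches to the interferon element core (GAAA, 2 bases, GAAA) in the promoters of the 12 members that hold one, in bases from the annotated transcription start, with matches on the strand of the gene in red above the line and those on the opposite strand in blue below it. Most lie within 200 bases before the start; Ifitm3 and one of the annotated starts of Trim30a have matches just after it.

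No antiviral gene passed the test between LPS plus 3A2 and LPS, and all fold changes lay between 0.883, for Ifit3, and 1.22, for Ifi44l. By edgeR's quasi-likelihood test with Benjamini-Hochberg adjustment over all 11498 genes tested, 0 of the 36 members passed an adjusted p of 0.05, against 0 of all genes (0%), and the smallest adjusted p among members was 0.719. Without adjustment, 3 members (8.33%) had a p under 0.05, Rsad2, Ifi44 and Slfn5, each higher with LPS plus 3A2, against 749 of all genes (6.51%). DESeq2 gave 0 of 36 members past an adjusted p of 0.05, where 0.0055% of genes passed. An unadjusted p under 0.05 was found in 2 of 36 members, against 389 of 18176 genes (2.14%). The log2 fold change lay above 0 in 21 members and below it in 15, where 50.4% of all genes lay above, and its median was 0.0207 over members and 0.00174 over all genes.

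The data bound most of these differences tightly. For 35 of 36 members (97.2%) the whole 95% interval was inside 1.5-fold either way, against 79.6% of all genes. Among genes in the members' range of mean CPM with LPS the share was 96.3%. For 14 members (38.9%) the interval was inside 1.2-fold, against 26.2% of all genes. That share of all genes was not restricted to the members' range of CPM, so abundance is not matched in it. The exception at 1.5-fold was Ifi44l, with an upper bound of 1.502. Over the 37 genes the summed level was 3654, 3635 and 3635 CPM in the LPS plus 3A2 libraries, against 3602, 3556 and 3556 CPM in the LPS libraries. The groups did not overlap in this sum. Ifitm3 alone makes up 669 to 700 CPM of it in a library, but its own groups overlapped, with means of 684 and 679 CPM. The means of Ifi44 lay further apart, at 218 ± 37.8 CPM with LPS plus 3A2 and 187 ± 5.54 CPM with LPS (SD, n = 3 each). Its highest value was 261 CPM, in LPS plus 3A2 replicate 3. The part of single members in the difference between sums was not tested. With unscaled library totals the sum was 3621, 3612 and 3592 CPM with LPS plus 3A2, against 3592, 3576 and 3602 CPM with LPS, and the groups overlapped.

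**Figure D2:**
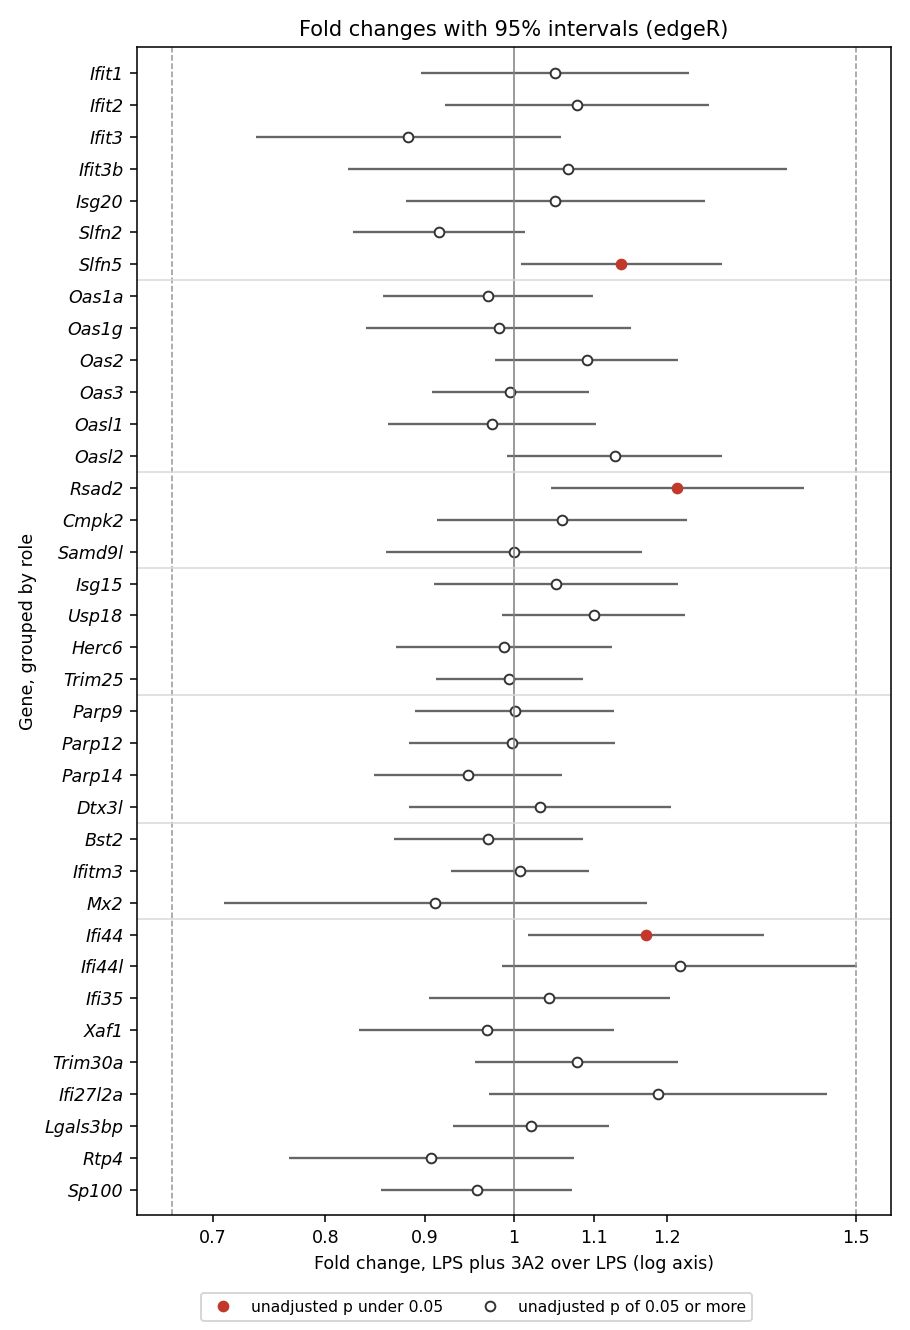
Fold change of the 36 tested members, LPS plus 3A2 over LPS, on a log axis, with points for edgeR's estimate and bars for its 95% interval. Dashed lines mark 1.5-fold in either direction, and red points mark Rsad2, Ifi44 and Slfn5, the members with an unadjusted p under 0.05.

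**Figure D3:**
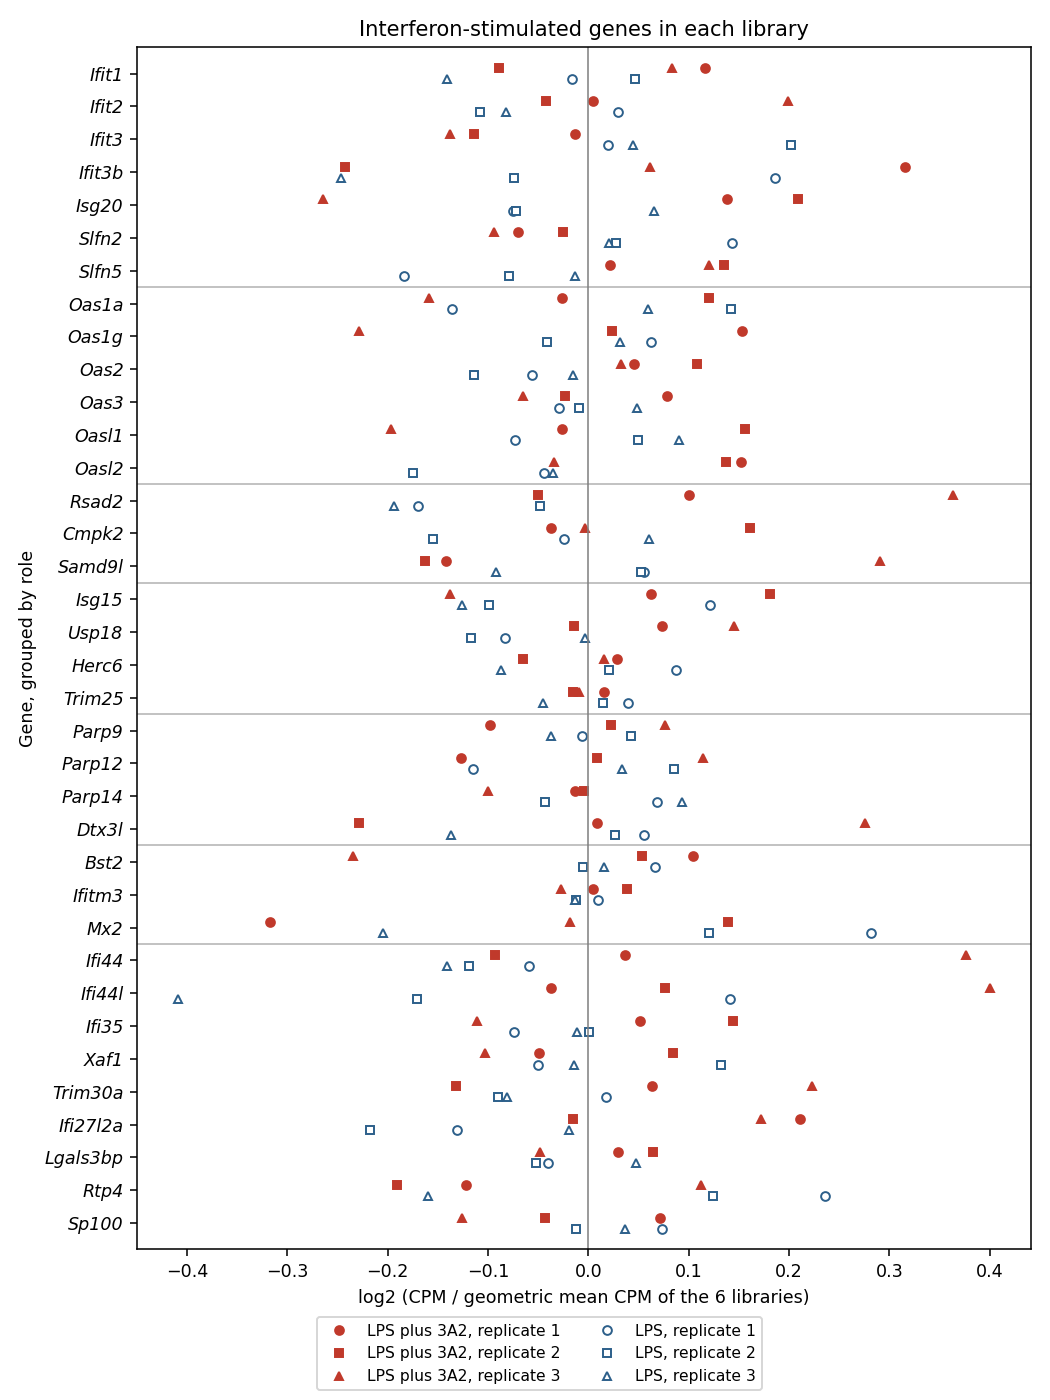
Level of each tested member in each library, as the log2 ratio of its CPM to the geometric mean of the 6 libraries, with LPS plus 3A2 in filled red symbols and LPS in open blue symbols. Red triangles, LPS plus 3A2 replicate 3, lie far to the right for Rsad2, Samd9l, Dtx3l, Ifi44 and Ifi44l and far to the left for Isg20, Oas1g and Bst2.

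All CPM values of a gene that follow are in the order replicate 1, 2 and 3. Of the 36 members, 6 had groups that did not overlap (16.7%), 4 higher and 2 lower with LPS plus 3A2, against 12.3% of all genes (5.84% higher and 6.46% lower). With unscaled totals 4 did not overlap, Slfn5 and Oas2 higher and Ifit3 and Slfn2 lower, against 13% of all genes, and Oasl2 and Ifi27l2a overlapped.

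Genes whose products bind, cut or control RNA had 5 of 7 tested members above 0 and 2 below, the median log2 fold change was 0.0717, and 0 passed. The Schlafen gene Slfn5 measured 66.9, 72.3 and 71.6 CPM with LPS plus 3A2, against 58.0, 62.3 and 65.3 CPM with LPS. All LPS plus 3A2 libraries lay above all LPS libraries, at 1.14-fold (95% interval 1.01 to 1.28), with an edgeR p of 0.0368 unadjusted and 0.748 adjusted. An annotated antisense gene, Slfn5os, overlaps its exons, so its reads cannot be told apart if strand was not used in counting. Slfn2, which in mouse guards T cells and monocytes against loss of quiescence, lay the other way. It measured 122, 125 and 119.5 CPM with LPS plus 3A2, against 141, 130.0 and 129 CPM with LPS, and its groups did not overlap either (0.916-fold, 0.827 to 1.01; edgeR adjusted p = 0.762). Ifit3 encodes one of the IFIT proteins, a family that binds viral RNA without the host's cap methylation. It measured 19.5, 18.2 and 17.9 CPM with LPS plus 3A2, against 19.9, 22.6 and 20.3 CPM with LPS, again without overlap and lower with the antibody (0.883-fold, 0.737 to 1.06; edgeR adjusted p = 0.813). Its near-copy Ifit3b measured 13.1, 8.93 and 11 CPM with LPS plus 3A2, against 12, 10.0 and 8.90 CPM with LPS, and these overlapped. Of the 150-base windows of its longest transcript, Ifit3 shares 18.5% with other genes and Ifit3b 16.0%, so counts could pass from one to the other. The sum of the pair was 32.6, 27.1 and 28.9 CPM with LPS plus 3A2, against 31.9, 32.6 and 29.2 CPM with LPS, and here the groups overlapped.

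Ifit1, the RNA-binding founder of the family, averaged 30.6 ± 2.29 CPM with LPS plus 3A2 and 29.1 ± 1.90 CPM with LPS (SD, n = 3 each), or 1.05-fold (0.896 to 1.23). Ifit2, its partner, averaged 33.2 ± 2.99 CPM with LPS plus 3A2 and 30.7 ± 1.57 CPM with LPS (1.08-fold, 0.922 to 1.26). Isg20, an RNA exonuclease, averaged 31.0 ± 5.21 CPM with LPS plus 3A2 and 29.6 ± 1.66 CPM with LPS (1.05-fold, 0.881 to 1.25). For these genes the difference between means was smaller than the SD of the LPS plus 3A2 libraries.

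Oligoadenylate synthetases sense double-stranded RNA and make 2-5A, the activator of RNase L. In this family 0 of 6 members passed, with 2 above 0, 4 below and a median log2 fold change of -0.0153. Oas2 measured 84.7, 88.5 and 84.0 CPM with LPS plus 3A2, against 79.0, 75.9 and 81.2 CPM with LPS, without overlap (1.09-fold, 0.978 to 1.22; edgeR adjusted p = 0.799). Oasl2 measured 63.4, 62.8 and 55.8 CPM with LPS plus 3A2, against 55.4, 50.6 and 55.7 CPM with LPS. Its lowest LPS plus 3A2 library lay just above the highest LPS library (1.13-fold, 0.993 to 1.28; edgeR adjusted p = 0.757). Oas3, the most abundant by CPM, measured 257, 239 and 232 CPM with LPS plus 3A2, against 238, 241 and 251 CPM with LPS, and the groups overlapped fully. It stood at 0.996-fold (0.908 to 1.09). Oasl1, which in mouse holds back translation of Irf7, averaged 107 ± 13.1 CPM with LPS plus 3A2 and 109.5 ± 6.37 CPM with LPS (0.974-fold, 0.861 to 1.1).

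Oas1a and Oas1g are near-copies as well, with 32.4% and 30.1% of their 150-base windows shared with other genes. Oas1a averaged 105 ± 10.2 CPM with LPS plus 3A2 and 108 ± 10.5 CPM with LPS, and Oas1g averaged 36.0 ± 4.73 CPM with LPS plus 3A2 and 36.7 ± 1.34 CPM with LPS. Their sum was 144, 152 and 126 CPM with LPS plus 3A2, against 134, 152 and 148 CPM with LPS, so the pair overlapped between groups counted together too.

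Rsad2, Cmpk2 and Samd9l, which act on nucleotides or viral replication, had log2 fold changes with a median of 0.083, and 0 of 3 passed. Rsad2 encodes viperin, a radical SAM enzyme that turns CTP into the chain terminator ddhCTP, and it had the smallest p of all members. It measured 51.8, 46.6 and 62.1 CPM with LPS plus 3A2, against 42.9, 46.7 and 42.2 CPM with LPS. The LPS plus 3A2 libraries spread widely, with replicate 3 the highest and replicate 2 at the level of LPS replicate 2. The fold change was 1.21 (1.05 to 1.41), or 0.28 ± 0.104 (SE) in log2, with an edgeR p of 0.0137 unadjusted and 0.719 adjusted. Without LPS plus 3A2 replicate 3 it was 1.12 (0.976 to 1.28) and without replicate 2 it was 1.29 (1.12 to 1.49; edgeR adjusted p = 0.0919). Neither passed, while 0.214% of all genes did without replicate 2. Cmpk2, its neighbour in the genome, encodes a mitochondrial nucleotide kinase that supplies viperin's substrate. It averaged 39.3 ± 2.94 CPM with LPS plus 3A2 and 37.2 ± 2.77 CPM with LPS (1.06-fold, 0.913 to 1.23). Samd9l, a restriction factor for poxviruses, measured 70.3, 69.3 and 94.8 CPM with LPS plus 3A2, against 80.6, 80.4 and 72.8 CPM with LPS. Its means were nearly equal (1.00-fold, 0.860 to 1.16) while its replicate 3 with LPS plus 3A2 lay above all other libraries.

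ISG15 is conjugated to proteins by ligases such as HERC6, in mouse, and TRIM25, and is removed by USP18, which also holds back signalling at IFNAR. In this group 0 of 4 members passed, with 2 above 0, 2 below and a median log2 fold change of 0.0332. Isg15 measured 53.7, 58.3 and 46.7 CPM with LPS plus 3A2, against 56.0, 48.0 and 47.1 CPM with LPS, and the groups overlapped (1.05-fold, 0.910 to 1.22). Usp18 measured 101, 94.8 and 106 CPM with LPS plus 3A2, against 90.4, 88.3 and 95.5 CPM with LPS. A single pair overlapped, LPS plus 3A2 replicate 2 and LPS replicate 3 (1.1-fold, 0.986 to 1.23; edgeR adjusted p = 0.761). Trim25 was the steadiest of the 4, at 317, 311 and 312 CPM with LPS plus 3A2, against 323, 317 and 304 CPM with LPS. Its interval of 0.912 to 1.09 was among the narrowest of all members. Herc6 averaged 51.6 ± 1.80 CPM with LPS plus 3A2 and 52.2 ± 3.15 CPM with LPS (0.989-fold, 0.870 to 1.12).

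Among the ADP-ribosyltransferases and their partner 0 of 4 passed, with 2 on each side of 0 and a median log2 fold change of -0.000344. Parp14, a mono-ADP-ribosyltransferase, measured 80.3, 80.8 and 75.6 CPM with LPS plus 3A2, against 85.0, 78.7 and 86.4 CPM with LPS, with overlap (0.948-fold, 0.848 to 1.06). PARP9 and the ubiquitin ligase DTX3L work as a heterodimer, and their genes lie next to each other with overlapping exons on opposite strands, so their reads are uncertain in the same way as those of Slfn5. Parp9 averaged 66.6 ± 4.07 CPM with LPS plus 3A2 and 66.5 ± 1.87 CPM with LPS (1.00-fold, 0.890 to 1.13), and Dtx3l averaged 59.4 ± 10.4 CPM with LPS plus 3A2 and 57.4 ± 4.05 CPM with LPS (1.03-fold, 0.884 to 1.21). Parp12 averaged 77.5 ± 6.46 CPM with LPS plus 3A2 and 77.6 ± 5.51 CPM with LPS (0.998-fold, 0.883 to 1.13).

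Factors at membranes had 1 of 3 tested members above 0 and 2 below, the median log2 fold change was -0.0436, and 0 passed. Ifitm3, which sits in endosomes and blocks the fusion of entering viruses, was the most abundant member by CPM and also per length. It measured 684, 699.9 and 669 CPM with LPS plus 3A2, against 686, 676 and 676 CPM with LPS, and its interval was the narrowest of all members, at 1.01-fold (0.928 to 1.09). Bst2, or tetherin, which holds budding virus at the cell surface, measured 226, 218 and 178 CPM with LPS plus 3A2, against 219.9, 209 and 212 CPM with LPS. Its replicate 3 with LPS plus 3A2 was the lowest of the 6 libraries (0.970-fold, 0.867 to 1.09). The dynamin-like GTPases were low. Mx2 measured 9.09, 12.5 and 11.2 CPM with LPS plus 3A2, against 13.8, 12.3 and 9.83 CPM with LPS (0.911-fold, 0.709 to 1.17). Mx1, which is disrupted in most inbred laboratory mouse strains, was the member that failed the filter, with 0, 0 and 0 counts with LPS plus 3A2 and 2, 0 and 1 with LPS. A library with 0 counts allows up to 0.401 to 0.501 CPM, by counting error only, so a difference in Mx1 was not detectable at this depth.

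Of the 9 remaining members, of mixed function, 6 lay above 0 and 3 below, the median log2 fold change was 0.0612, and 0 passed. Ifi44 measured 206, 188 and 261 CPM with LPS plus 3A2, against 193, 185 and 182 CPM with LPS. The highest value was again LPS plus 3A2 replicate 3, and replicate 2 lay within the LPS range. The fold change was 1.17 (1.02 to 1.34), with an edgeR p of 0.0307 unadjusted and 0.743 adjusted. It was 1.06 (0.972 to 1.15) without replicate 3 and 1.25 (1.12 to 1.40; edgeR adjusted p = 0.0678) without replicate 2. Its neighbour Ifi44l measured 23.0, 24.9 and 31.2 CPM with LPS plus 3A2, against 26.1, 21.0 and 17.8 CPM with LPS, with overlap (1.22-fold, 0.987 to 1.5; edgeR adjusted p = 0.757). Ifi27l2a, a small mitochondrial membrane protein gene, measured 18.0, 15.4 and 17.5 CPM with LPS plus 3A2, against 14.2, 13.4 and 15.4 CPM with LPS. The groups did not overlap, by a margin too small to see in 3 digits (1.19-fold, 0.971 to 1.45; edgeR adjusted p = 0.772). Lgals3bp, a secreted galectin-binding protein, measured 241, 247 and 229 CPM with LPS plus 3A2, against 230.0, 228 and 244 CPM with LPS, and stood at 1.02-fold (0.931 to 1.12).

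Trim30a, which in mouse restrains NF-κB signalling downstream of Toll-like receptors, averaged 123 ± 15.0 CPM with LPS plus 3A2 and 114 ± 4.79 CPM with LPS (1.08-fold, 0.955 to 1.22). Ifi35 averaged 41.3 ± 3.65 CPM with LPS plus 3A2 and 39.6 ± 1.09 CPM with LPS (1.04-fold). Below 0 lay Rtp4, at 34.4 ± 3.87 CPM with LPS plus 3A2 and 37.8 ± 5.17 CPM with LPS (0.907-fold, 0.766 to 1.07). Sp100, a component of nuclear bodies, stood at 0.957-fold (0.855 to 1.07), and Xaf1, a pro-apoptotic gene, at 0.969-fold (0.833 to 1.13). The groups of these members overlapped. Annotated antisense genes also overlap exons of Oasl1, Usp18 and Ifi35, and Herc6 and Rtp4 share 17.9% and 8.60% of their 150-base windows with other genes, so their counts are uncertain to that extent.

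**Figure D4:**
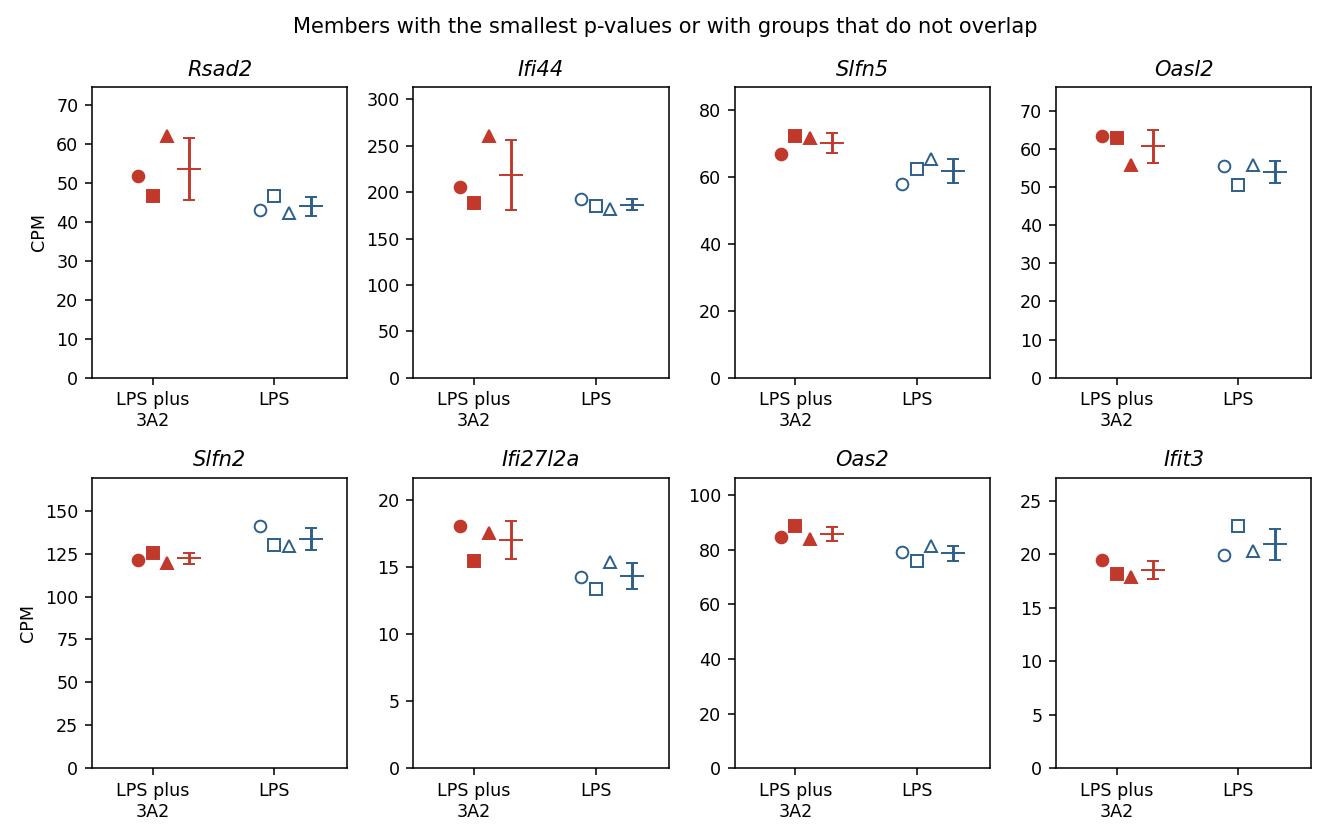
CPM in each library of the 8 members with an unadjusted p under 0.05 or with groups that do not overlap, with LPS plus 3A2 on the left in filled red and LPS on the right in open blue, circles, squares and triangles for replicates 1, 2 and 3, and bars for the mean and SD of 3 libraries. Slfn5, Oas2 and Oasl2 lie higher and Slfn2 and Ifit3 lower with LPS plus 3A2 in every library, while Rsad2 and Ifi44 overlap and have their highest value in LPS plus 3A2 replicate 3.

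Per length the members covered a wide range of levels. Dividing mean CPM by the kilobases of annotated exon (GENCODE M21), Ifitm3 came first, at 1009 CPM per kilobase with LPS plus 3A2 and 1002 with LPS. Bst2 followed, at 229.7 with LPS plus 3A2 and 237 with LPS, and then Lgals3bp, at 84.0 with LPS plus 3A2 and 82.2 with LPS. Slfn2 stood at 73.4 with LPS plus 3A2 and 80.2 with LPS, and Isg15, whose mRNA is short, at 70.0 with LPS plus 3A2 and 66.6 with LPS. The order of these genes was the same in both groups. At the low end Mx2 had 3.02 CPM per kilobase with LPS plus 3A2 and 3.31 with LPS, and Ifit3b had 5.52 with LPS plus 3A2 and 5.16 with LPS. Between these ends the levels of Rsad2, Ifit1 and Samd9l lay at 10.1 to 14.4 CPM per kilobase in either group.

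Libraries of the LPS plus 3A2 group differed in a way that followed base composition. Of the members with the smallest p-values, Rsad2 and Ifi44 differed clearly between these libraries and Slfn5 little. For each library, log2 CPM was set against the mean of the other 2 libraries of its group. In LPS plus 3A2 replicate 3 this difference ran against GC content of the longest annotated transcript, with r = -0.501 across 10868 genes, and in replicate 2 it ran with it, at r = 0.481. In replicate 1 r was 0.062, and in the LPS libraries r ran from -0.225 to 0.222. Each library was set against the others of its group, so a trend in a library is mirrored among those others. The r values of a group are therefore not separate observations. Genes of 1 library are not independent replicates, and these are descriptions. Across the 36 members r was -0.717 in replicate 3 and 0.633 in replicate 2.

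Of the members, 7 lay more than 0.25 above 0 on this log2 scale in replicate 3, namely Samd9l, Ifi44, Dtx3l, Ifi44l, Rsad2, Rtp4 and Trim30a. Another 5 lay more than 0.25 below 0, namely Isg20, Oas1g, Bst2, Oasl1 and Isg15. Together these were 33.3% of members, close to the 32.8% of all genes tested that lay beyond 0.25 in this library. The median GC content was 42.6% in the first set and 55.3% in the second, against 49.4% over all genes tested. Rsad2 has 44.3% GC and a difference of 0.33, Ifi44 has 40.4% and 0.40, and Slfn5 has 44.4% and 0.04. Mitochondrially encoded mRNA took 3.06% of counts in replicate 3, where the others of its group had 2.18% and 2.54%. The mRNAs of ribosomal proteins took 3.77% there, where those others had 4.19% and 4.23%. The part of this library difference in the fold changes of Rsad2 and Ifi44 was not tested.

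With a smooth function of GC content removed from each library, a setting chosen after the data were seen, 0 of 36 members and 0.122% of all genes passed by edgeR, and the smallest adjusted p was 0.408 for Rsad2. At an unadjusted p under 0.05 there were 7 of 36 members, against 965 of 11498 genes (8.39%), a larger share. These members were Rsad2, Ifi44, Usp18, Oasl2, Oas2 and Ifi27l2a above 0 and Slfn2 below 0. Rsad2 then stood at 1.17-fold (1.04 to 1.32), Ifi44 at 1.1-fold (1.02 to 1.18) and Slfn5 at 1.1-fold (0.991 to 1.22). Oas2 stood at 1.1-fold (1.01 to 1.2), and Usp18 at 1.12-fold (1.02 to 1.22).

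**Figure D5:**
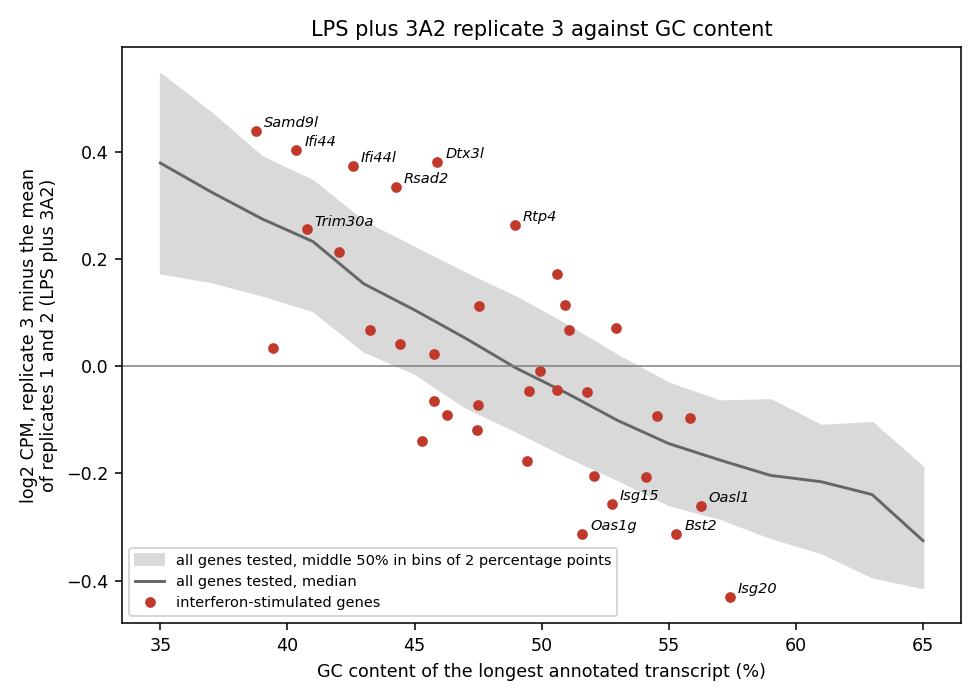
Difference in log2 CPM between LPS plus 3A2 replicate 3 and the mean of replicates 1 and 2 of that group, against GC content of the longest annotated transcript, with red points for the 36 members, and the median and middle 50% of all genes tested in grey. Members with little GC, such as Samd9l and Ifi44, lie above 0 and those with much GC, such as Isg20 and Bst2, below it.

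Upstream of the antiviral genes, 0 members of any interferon pathway list passed by edgeR in either direction. Interferon ligands were at or near 0 counts at 24 h, with 11 of 12 at 0 counts in all libraries. Ifnb1, interferon beta, had 2, 0 and 0 counts with LPS plus 3A2 and 0, 3 and 1 with LPS, so a difference was not detectable. Of the receptor genes, 0 of 5 tested passed, with 1 above 0, 4 below and a median log2 fold change of -0.0763. Ifnar1, the first chain of the type I receptor, measured 57.6, 56.0 and 61.3 CPM with LPS plus 3A2, against 68.1, 60.3 and 69.7 CPM with LPS, and overlapped in a single pair (0.883-fold, 0.780 to 1.00; edgeR adjusted p = 0.748). Ifngr2, the most abundant by CPM, stood at 0.948-fold (0.849 to 1.06).

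Of the 7 genes for JAKs, STATs and IRF9, 0 passed, with 3 above 0 and 4 below. Stat2 averaged 84.2 ± 3.25 CPM with LPS plus 3A2 and 80.4 ± 4.5 CPM with LPS (1.05-fold, 0.936 to 1.17), and Jak1 averaged 197 ± 8.37 CPM with LPS plus 3A2 and 197 ± 1.77 CPM with LPS (1.00-fold, 0.915 to 1.1). Of 8 interferon regulatory factors and their binding proteins tested, 0 passed, with 4 on each side of 0. Irf2bp2, a partner of IRF2, stood at 0.906-fold (0.794 to 1.03), and Irf7, the most abundant by CPM, at 1.02-fold (0.935 to 1.12).

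Negative regulators of the pathway had 3 of 11 above 0 and 8 below, the median log2 fold change was -0.0891, and 0 passed. Ptpn6, which encodes the phosphatase SHP-1, measured 218, 230.0 and 212 CPM with LPS plus 3A2, against 239, 244 and 264 CPM with LPS, without overlap (0.882-fold, 0.802 to 0.970; edgeR adjusted p = 0.719). Socs3, the most abundant by CPM, stood at 0.957-fold (0.872 to 1.05). Of 17 nucleic acid sensors and their partners, 0 passed, with 7 above 0 and 10 below. Zbp1, a sensor of Z-form nucleic acid, measured 20.6, 18.0 and 11.5 CPM with LPS plus 3A2, against 13.0, 12.2 and 10.9 CPM with LPS. Its replicate 3 with LPS plus 3A2 lay within the LPS range (1.39-fold, 1.07 to 1.80; edgeR adjusted p = 0.719). Adar, an RNA-editing deaminase, stood at 0.929-fold (0.845 to 1.02).

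A further list of 50 interferon-stimulated genes outside the 37 had 43 tested and 0 past the threshold, with 21 above 0, 22 below and a median log2 fold change of -0.00355. Without adjustment, 5 of the 43 had a p under 0.05, 4 higher and 1 lower, against 394 (3.43%) and 355 (3.09%) of 11498 genes. Sp110, a relative of Sp100, measured 96.9, 96.4 and 91.0 CPM with LPS plus 3A2, against 103, 114 and 110.4 CPM with LPS, without overlap (0.870-fold, 0.782 to 0.969; edgeR adjusted p = 0.719). Ly6e, the most abundant by CPM, averaged 1161 ± 83.4 CPM with LPS plus 3A2 and 1137 ± 30.5 CPM with LPS (1.02-fold). Ube2l6, the enzyme that passes ISG15 to its ligases, measured 75.8, 69.4 and 65.9 CPM with LPS plus 3A2, against 60.5, 58.1 and 62.9 CPM with LPS, without overlap (1.16-fold, 1.03 to 1.31; edgeR adjusted p = 0.719). It was named after its values were seen, as the partner of Isg15, Usp18 and Herc6.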

How the data were processed

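RNA of 6 RAW264.7 cultures was measured. Per the labels' protocols, ribosomal RNA was depleted and strand-specific 150-base paired-end libraries were sequenced. The authors deposited raw read counts per gene symbol, 1 column per library. HISAT2 and edgeR are named in the submitters' processing notes, without versions. For the counting program, the annotation and the use of strand, nothing is given in the sources used here. The build named there is GRCh38, of human, but the gene symbols are murine (39282 of 40773 match RefSeq GRCm38), so no gene coordinates are printed besides those of RefSeq promoters. Another 3 columns with values beside a few genes name no sample and were not used. Entries naming no gene numbered 0.

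The members and lists were chosen with earlier results of these data known. Groups and replicate numbers came from the titles. Genes passing filterByExpr were tested in edgeR 4.0.16 under R 4.3.3 (TMM, robust quasi-likelihood, no covariate, two-sided), with Benjamini-Hochberg adjustment over 11498 genes and a threshold of 0.05. P-values and intervals rest on the spread between 3 cultures a group, with each gene's variance moderated by edgeR towards that of the other genes tested. The test was tried on simulated counts. Intervals are at the 95% level. No 2 libraries agreed within sampling noise (chi-square per degree of freedom 3.34 to 22).

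Values in every library are given for members with an unadjusted p under 0.05, with groups that do not overlap, or most abundant in their role, and for further members chosen after their values were seen (Ifit3b, Isg15, Usp18, Bst2, Mx2, Ifi44l). From each related list the tested gene with the smallest p and the most abundant one are named. Alternatives were DESeq2 size factors, unscaled totals, no filter, at least 1 CPM in every library, DESeq2 1.42.0, limma-voom (limma 3.58.1), the replicate number as a block and leaving out each library. An offset per library fitted by lowess on transcript GC content (GENCODE M21, 94.5% of genes with a value) was added after seeing the data. Shared 150-base windows and exon lengths came from GENCODE M21 as well.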

Additional observations from a re-analysis of the deposited data

How the results depend on the processing

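Under each alternative run, 0 members passed an adjusted p of 0.05, and 18 to 24 of 36 lay above 0. Counts of genes past the threshold over the whole table were small throughout. Without a filter on low counts 13 genes passed higher and 3 lower, with DESeq2 1 passed higher, and with the GC offset 7 passed higher and 7 lower. Leaving out 1 library gave 0 to 20 genes higher and 0 to 5 lower, with the highest counts without LPS plus 3A2 replicate 2. The cause was not tested. The median log2 fold change of members was 0.000124 with unscaled library totals, where the median of all genes lay at -0.0186, and 0.00307 to 0.0400 with 1 library left out. Same-numbered libraries did not deviate together (r = -0.0102, 0.0253 and -0.163 across genes). With 3 numbers, and with the GC trends above in these deviations, this cannot show that no batch was shared. The labels do not say whether a number marks one. With the replicate number as a block, 1 gene passed higher and Samd9l stood at -0.00934, and no call on a member changed.

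The side of 0 was kept in 20 members under all alternatives. It changed in 8 with another setting and in a further 8 when 1 library was left out, all of them small values. In log2 fold change, with unscaled totals, Samd9l stood at -0.0195, Parp9 at -0.0187 and Ifitm3 at -0.00965, and Parp12 stood at 0.00155 without a filter. With limma-voom Samd9l stood at -0.0142. With the GC offset Samd9l stood at -0.102, Parp9 at -0.00859, Oas3 at 0.0413, Oasl1 at 0.0168, Trim25 at 0.00333, Parp12 at 0.0142 and Bst2 at 0.00349. With 1 library left out, the log2 fold change ran from -0.0527 to 0.227 for Ifit3b, from -0.0207 to 0.202 for Isg20, from -0.118 to 0.0222 for Oas1a and from -0.112 to 0.0716 for Oas1g. It ran from -0.0467 to 0.0253 for Oas3, from -0.132 to 0.0457 for Oasl1, from -0.161 to 0.081 for Samd9l and from -0.00324 to 0.155 for Isg15. It ran from -0.0607 to 0.025 for Herc6, from -0.0311 to 0.0119 for Trim25, from -0.0358 to 0.0497 for Parp9 and from -0.0609 to 0.0583 for Parp12. For Dtx3l it ran from -0.0922 to 0.162, for Bst2 from -0.108 to 0.0534, for Ifitm3 from -0.0058 to 0.0271 and for Xaf1 from -0.103 to 0.0128. With 3 libraries a group at this depth, the lowest members, Mx2 and Ifit3b, had the widest intervals.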
